A study of Mus musculus with 12 samples.

Results

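Keratins, claudins and the genes of epithelial junctions were described in mouse ovaries with and without tumors. The set was defined by gene symbol, with earlier results of these data known. It takes in the numbered keratins (Krt), claudins (Cldn), desmogleins (Dsg), desmocollins (Dsc), plakophilins (Pkp), tight junction proteins (Tjp) and connexins (Gja, Gjb, Gjc), together with Epcam, Cdh1, Dsp, Jup, Ocln and F11r. It held 69 of the 10949 genes measured. They were 17 type I keratins, 17 type II keratins, 16 claudins, 7 connexins, 4 desmosomal cadherins, 4 desmosomal plaque proteins, 3 tight junction scaffold and adhesion genes, and Epcam. Cdh1, Ocln, Krt18 and Cldn1 were not analysed here.

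Epithelial cells are held together by a row of junctions. Claudins seal the space between neighbours at tight junctions, where each claudin sets which ions may pass, and Tjp scaffolds tie them to actin. Desmosomes join cells through desmogleins and desmocollins, whose plaque proteins (plakoglobin, plakophilins and desmoplakin) anchor the keratin filaments. Each filament is built from a type I and a type II keratin, and Krt8 is a type II keratin of simple, single-layered epithelia. Connexins form gap junctions, through which small molecules pass from cell to cell. In the ovary they couple granulosa cells to each other and to the oocyte, while keratins are best known from the surface epithelium.

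The study compared 12 ovary samples of female mice, all taken at 23 weeks of age in diestrus, a quiet phase of the estrous cycle. The 6 controls were Pgrcre/+ and had no tumor. The other 6 samples were Pgrcre/+PgrBLsL/+, 3 with a tumor of stage I and 3 of stage II. All 12 thus carried Pgrcre, which gives Cre recombinase from the progesterone receptor locus, so Cre can act in any cell that uses that locus and not in epithelium alone. No sample had the PgrBLsL allele without a tumor, so the allele and the tumor cannot be told apart in any comparison with control. The labels call the samples of a group biological replicates.

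The values are log2 levels as deposited, 1 array per sample, and changes are differences of mean log2 levels from limma's test with Benjamini-Hochberg adjusted p over all genes (threshold 0.05). Levels of different genes come from different probes and are not set against each other. Pgr, the gene after which both alleles are named, had levels of 3.74 to 4.60 in controls. In the samples labelled with PgrBLsL it was at 9.05 to 9.28 in stage I and at 9.78 to 10.09 in stage II. Markers of the ovary were measured in every array: the summed level of 6 granulosa cell genes was between 13.1 and 14.86 and that of 7 oocyte genes between 10.29 and 11.81 on the log2 scale. Control replicates 1 and 4 stood apart from the other controls, at 17.37 and 19.44 on the second principal component of all genes against -7.38 to -0.14. Several results are given with and without these 2 arrays. Array medians lay between 7.09 and 7.15.

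The genes of the set with the largest rise in stage II were the keratin Krt8 and the claudins Cldn11 and Cldn3. Their promoters, the 250 bases before the annotated start, are shown because these genes rose together. The sequences are from RefSeq (build GRCm38.p6), 5′ to 3′ on the strand of the gene, and lie at chr15:102004343-102004592 (minus strand) for Krt8, chr3:31149670-31149919 (plus strand) for Cldn11 and chr5:134985964-134986213 (plus strand) for Cldn3. Capitals mark matches to the motifs searched.
Krt8: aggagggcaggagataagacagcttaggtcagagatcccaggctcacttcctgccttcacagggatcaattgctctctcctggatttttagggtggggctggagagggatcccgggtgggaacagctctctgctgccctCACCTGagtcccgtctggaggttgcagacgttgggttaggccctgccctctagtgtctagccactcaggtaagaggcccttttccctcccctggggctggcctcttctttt
Cldn11: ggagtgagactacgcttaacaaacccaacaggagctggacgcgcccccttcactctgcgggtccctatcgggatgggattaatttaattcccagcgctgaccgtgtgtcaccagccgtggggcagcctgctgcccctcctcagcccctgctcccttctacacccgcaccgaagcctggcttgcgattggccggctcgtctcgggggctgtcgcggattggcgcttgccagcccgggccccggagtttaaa
Cldn3: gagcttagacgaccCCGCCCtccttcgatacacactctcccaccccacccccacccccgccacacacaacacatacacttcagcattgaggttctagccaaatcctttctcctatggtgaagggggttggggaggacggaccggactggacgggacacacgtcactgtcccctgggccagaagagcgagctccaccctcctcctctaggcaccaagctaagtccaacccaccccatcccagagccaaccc
On both strands 6 motifs were searched: the palindromic progesterone response element and its half-site (AGAACA), which can overlap it, a grainyhead-like site (AACCNGTT), the E-box of the Snail and Zeb type (CACCTG), a GC box (GGGCGG) and a TATA box (TATAAA). Krt8 held 1 match, to the E-box, at position -111 from the start. Cldn3 held 1, to the GC box on the opposite strand, at position -236. In the Cldn11 window there was no match. Of 27025 promoters of this length, 17.1% held the E-box letters and 32.9% the GC box letters. Among the 48 members with a promoter in the table, 12 held the first and 16 (33.3%) the second. The progesterone response element was in 0.381% of all promoters and in 1 of the 48. A match describes the letters of the window and is no sign of binding.

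Stage II ovaries differed from controls in 8 of the 69 genes. Krt8, Cldn11, Cldn3, Cldn2 and Pkp3 rose, and Dsp, Gja1 and Krt12 fell. The 8 genes are 11.6% of the set, beside 21.0% of all 10949 genes that passed in this comparison. Of all genes, 9.81% rose and 11.2% fell, or 1074 and 1228 genes. After quantile normalization 986 of all genes rose and 1634 fell, and in the set 5 rose and 4 fell. Of the 69 genes 4 passed with a change of at least 2-fold (Krt8, Cldn11, Cldn3 and Cldn2), where 2.5% of all genes did. The median log2 change was 0.058 over the set and -0.014 over all genes. Of the 69 genes 51 (73.9%) stayed within 0.25 of control on the log2 scale, as did 73.7% of all genes. The stage II arrays and the controls did not overlap for 8 genes, 4 higher (Krt8, Cldn11, Cldn3 and Pkp3) and 4 lower (Gja1, Gja10, Dsp and Krt79), where 22.0% of all genes did not overlap. Gja10, at a low level, did not pass (-0.19, adjusted p = 0.07). It passed after quantile normalization (-0.23, adjusted p = 0.024) and with array weights (-0.19, adjusted p = 0.033).

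In stage I no gene of the set passed against control, and 0.192% of all genes did. At an unadjusted p under 0.05, 5 genes of the set were higher and 2 lower, which is 7 of 69 against 6.38% of all genes. The median log2 change over the set was 0.004.

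**Figure D1:**
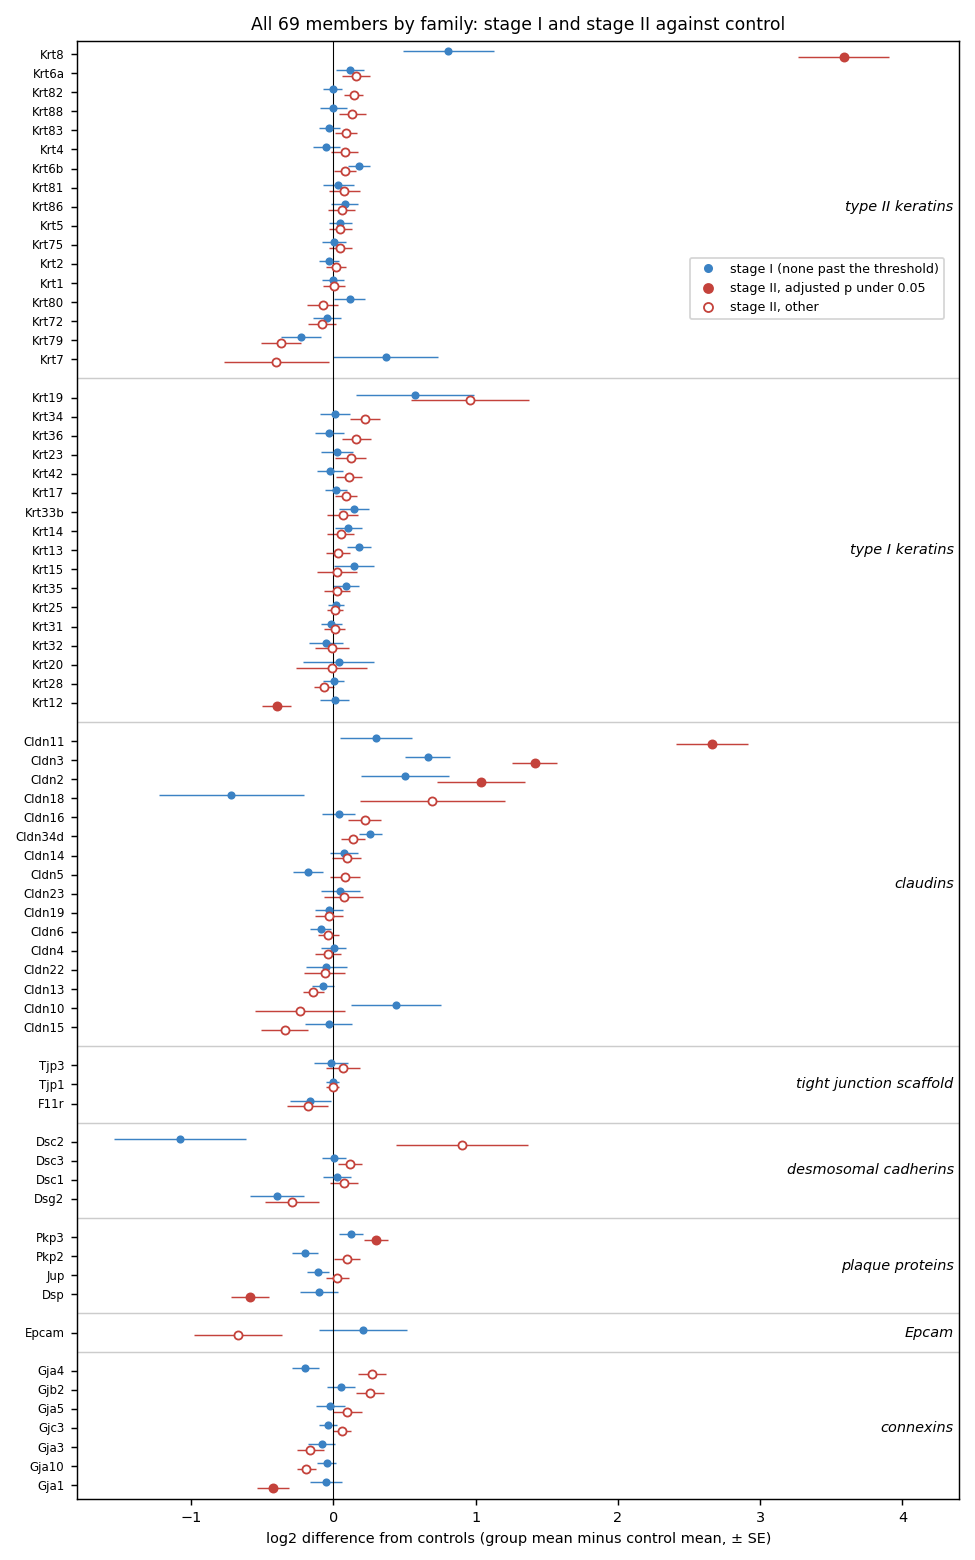
Difference of the stage I mean (blue) and the stage II mean (red) from the control mean on the log2 scale, with the standard error, for all 69 genes in their 8 families. Filled red points passed the adjusted p threshold of 0.05 in stage II. Krt8, Cldn11 and Cldn3 lie furthest to the right, and most keratins lie near 0 in both stages.

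Among the type II keratins Krt8 stood alone. Its level in controls ran from 8.45 to 9.33 with a median of 9.08. It was 10.41, 9.72 and 9.36 in stage I replicates 1, 2 and 3, and 12.06, 12.26 and 13.49 in stage II replicates 1, 2 and 3. The 3 groups did not overlap, although the lowest stage I array lay only just above the highest control. Krt8 rose 12-fold in stage II (log2 change 3.59 ± 0.32 SE, adjusted p = 1e-05). The stage I difference of 0.81 ± 0.32 did not pass (adjusted p = 0.69). Stage II lay 6.85-fold above stage I (log2 2.78 ± 0.37, adjusted p = 0.00084). A second Krt8 probe set gave 3.64 for stage II against control. In whole ovaries a change in the number of cells that use a gene and a change in RNA per cell cannot be told apart, and this holds for all values here.

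The other 16 type II keratins did not pass in any comparison. Krt7, a further keratin of simple epithelia, had levels from 6.91 to 8.61 in controls with a median of 8.02. Stage I arrays were at 7.99, 8.5 and 8.21 and stage II arrays at 7.52, 7.93 and 6.94. All stage II values lay inside the control range, whose low end was formed by control replicates 1 and 4 (6.91 and 7.06). The stage II change in Krt7 was -0.40 ± 0.37 (adjusted p = 0.5). Without those 2 controls it was -0.84 with an adjusted p of 0.03, so the call depends on them. Krt5, a keratin of basal epithelial cells, changed by 0.05 in stage II, and Krt6a, which is known from injured skin, by 0.16, neither past the threshold. Krt79 was lower in every stage II array than in any control (-0.36, adjusted p = 0.086). It passed with control replicate 1 left out (-0.43, adjusted p = 0.033), with array weights (-0.41, adjusted p = 0.03) and with control replicates 1 and 4 left out (-0.49, adjusted p = 0.018).

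Along chromosome 15 the 17 type II keratins lie in 1 cluster, and Krt8 is the last of them, with Krt78 before it and Krt18 after it in the RefSeq order. Neither of those neighbours was measured here. The rise was therefore seen in 1 of 17 measured genes of the cluster.

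Of the 17 type I keratins, which lie on chromosome 11, 1 passed in stage II, beside 21.0% of all genes. Krt12, the keratin of the corneal epithelium, ran from 4.26 to 4.77 in controls with a median of 4.61. It was 4.72, 4.51 and 4.54 in stage I and 4.13, 4.27 and 4.14 in stage II. The stage II arrays overlapped the controls at the lowest control alone. Krt12 fell by 0.40 ± 0.10 on the log2 scale against control (adjusted p = 0.017) and by 0.41 ± 0.12 against stage I (adjusted p = 0.042). These levels are in the lowest 25% of genes, with no measured background, and the other Krt12 probe set gave -0.19 (adjusted p = 0.23) against control. The call against control ended without stage II replicate 1 (-0.37, adjusted p = 0.064) or 3 (-0.38, adjusted p = 0.078). The call against stage I ended in 12 of 23 alternatives, among them each that left out stage II replicate 1 or 3, control replicate 1 or 3, or any array of stage I (-0.34 to -0.45, adjusted p from 0.053 to 0.13).

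Krt19, a type I keratin of simple and ductal epithelia, had the largest difference of its family without passing. Controls ran from 6.67 to 8.81 with a median of 8.25, stage I arrays were at 8.80, 8.88 and 8.24, and stage II arrays at 8.71, 9.68 and 8.68. The groups overlapped, and the stage II change was 0.96 ± 0.42 (adjusted p = 0.13). Without control replicates 1 and 4 it was 0.52 (adjusted p = 0.2). Krt14, the partner of Krt5 in basal cells, changed by 0.05 and Krt20, known from gut and bladder lining, by -0.01 in stage II. Over both types, 29 of the 34 keratins stayed within 0.25 of control in stage II, and 14 of the 34 were below a log2 level of 5 on all 12 arrays.

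Claudins gave 3 of the 5 genes that rose in stage II, which is 18.8% of the 16 claudins beside 9.81% of all genes. No claudin passed as lower, although 7 of the 16 had a stage II mean below control. Cldn11 is the claudin of myelin and of the blood-testis barrier formed by Sertoli cells. Its level ran from 5.58 to 6.20 in controls with a median of 6.12, was 7.04, 5.86 and 6.15 in stage I, and 8.36, 8.51 and 9.27 in stage II. Every stage II array was above every other array, and among the stage I arrays only replicate 1 was above the controls. Cldn11 rose 6.32-fold in stage II (log2 2.66 ± 0.25, adjusted p = 1.9e-05), and stage II lay 5.14-fold above stage I (2.36 ± 0.29, adjusted p = 0.00054). The stage I difference of 0.30 ± 0.25 did not pass (adjusted p = 0.95).

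Cldn3, a sealing claudin of many simple epithelia, was between 5.13 and 5.68 in controls with a median of 5.34. It was 6.32, 6.21 and 5.61 in stage I and 6.65, 6.85 and 6.90 in stage II. Stage II arrays lay above all others, and in stage I replicates 1 and 2 were above the controls while replicate 3 lay inside their range. Cldn3 rose 2.67-fold in stage II (1.42 ± 0.16, adjusted p = 7e-05). In stage I the difference was 0.66 ± 0.16 (adjusted p = 0.27), and without stage I replicate 3 it was 0.88 and passed (adjusted p = 0.024). Stage II was 0.75 ± 0.18 above stage I (adjusted p = 0.021), and this call was lost without stage I replicate 3 (0.53, adjusted p = 0.068) or stage II replicate 3 (0.70, adjusted p = 0.082). Cldn3 and Cldn4 are neighbours on chromosome 5, and Cldn4, likewise a claudin of simple epithelia, changed by -0.04 in stage II (adjusted p = 0.81).

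Cldn2, which forms pores for cations and water, had levels from 4.59 to 6.14 in controls with a median of 5.23, of 5.58, 6.38 and 5.26 in stage I, and of 6.00, 6.59 and 6.24 in stage II. Control replicate 5 reached into the stage II range. The stage II rise of 2.06-fold (1.04 ± 0.31, adjusted p = 0.033) was lost under more alternatives than those of Cldn11 and Cldn3. It ended with control replicate 1, 3 or 6 or stage II replicate 2 or 3 left out, with values from 0.88 to 1.06 and adjusted p from 0.051 to 0.11, as well as with array weights (0.92, adjusted p = 0.056) and without control replicates 1 and 4 (1.03, adjusted p = 0.064). A second Cldn2 probe set showed a stage II change of 0.01 ± 0.07 (adjusted p = 0.96).

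The other 13 claudins did not pass. Cldn5, the claudin of blood vessel lining, had means of 9.42 ± 0.15 (SD, 6 controls), 9.25 ± 0.21 (3 stage I arrays) and 9.51 ± 0.09 (3 stage II arrays), a stage II change of 0.08 (adjusted p = 0.65). Cldn10, which forms ion pores in kidney and glands, changed by -0.24 (adjusted p = 0.66). Cldn18, a claudin of stomach and lung, was 7.60, 5.23 and 5.54 in stage II, with replicate 1 far above the other two, and its difference of 0.70 did not pass (adjusted p = 0.37). Without that replicate it was -0.04, and with array weights it passed against control (1.63, adjusted p = 0.022) and against stage I (2.05, adjusted p = 0.02). Cldn15, known from intestine, was at -0.34 (adjusted p = 0.17) and passed without control replicate 1 (-0.45, adjusted p = 0.025), without control replicates 1 and 4 (-0.51, adjusted p = 0.011) and with array weights (-0.44, adjusted p = 0.028).

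**Figure D2:**
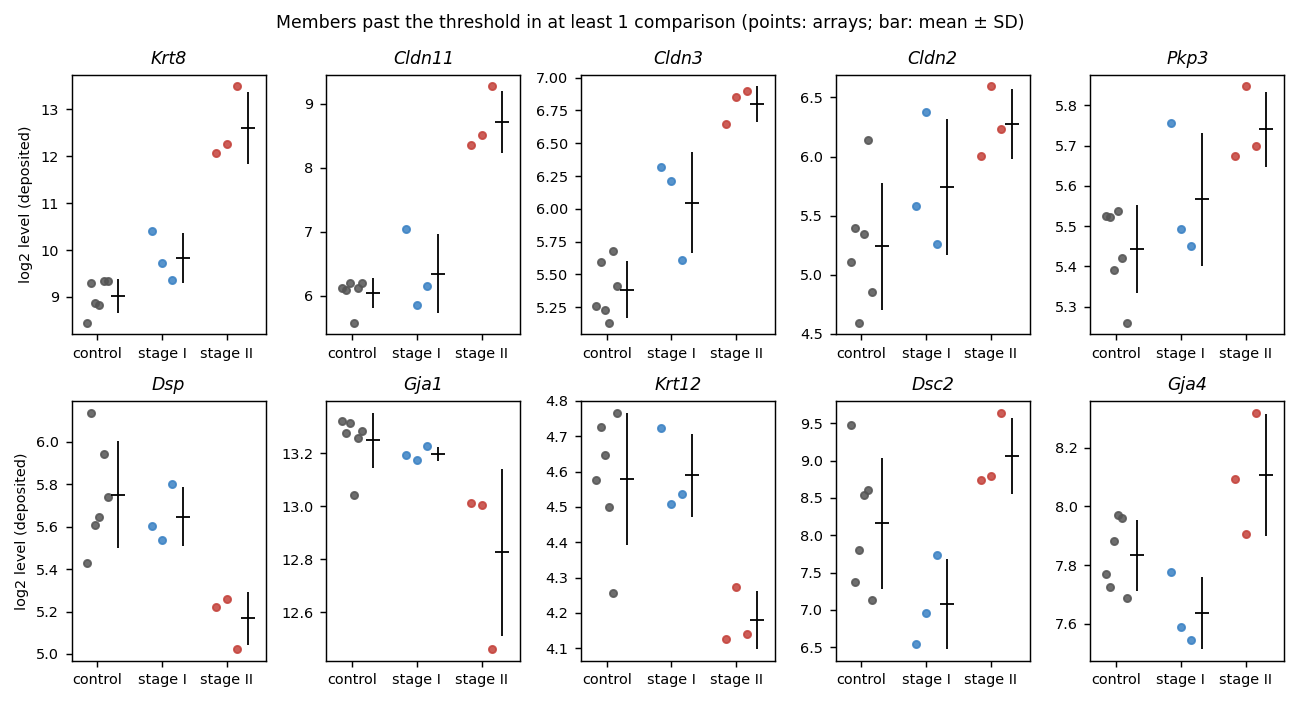
Deposited log2 level in each array for the 10 genes past the threshold in at least 1 comparison, by group, with the group mean and standard deviation at the right of each group and an axis of its own for each gene. For Krt8, Cldn11 and Cldn3 all stage II arrays lie above all controls, and for Dsp and Gja1 all lie below.

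No gene of the tight junction scaffold passed in any comparison. Tjp1, the scaffold protein ZO-1, averaged 11.02 ± 0.03 (SD, 6 controls), 11.01 ± 0.02 (3 stage I arrays) and 11.01 ± 0.03 (3 stage II arrays), with a standard error of 0.05 on the stage II change (adjusted p = 0.97). Tjp3, a further scaffold of this family, changed by 0.07 ± 0.12 (adjusted p = 0.74). F11r, the adhesion molecule JAM-A, changed by -0.18 ± 0.14 (adjusted p = 0.42).

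Epcam, an adhesion molecule found across epithelia, did not pass in stage II. Its level was between 8.28 and 9.74 in controls with a median of 9.13, was 9.15, 9.60 and 8.97 in stage I, and 8.12, 8.91 and 8.06 in stage II. The stage II arrays lay below every stage I array and reached into the range of the controls, of which replicates 1 and 4 were the lowest (8.28 and 8.47). The stage II change was -0.67 ± 0.31 (adjusted p = 0.15). It passed without control replicates 1 and 4 (-1.0, adjusted p = 0.014) and with array weights (-0.89, adjusted p = 0.025). Against stage I it was -0.88 (adjusted p = 0.13), and passed without the same 2 controls (adjusted p = 0.045).

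Desmosomal genes moved in both directions. Dsp, the plaque protein desmoplakin that binds keratin filaments, ran from 5.43 to 6.14 in controls with a median of 5.69. It was 5.61, 5.53 and 5.80 in stage I and 5.22, 5.26 and 5.02 in stage II, where every array lay below every other. Dsp fell by 0.58 ± 0.13 on the log2 scale in stage II (adjusted p = 0.0097), and the call ended without stage II replicate 3 (-0.51, adjusted p = 0.062). Against stage I its difference of -0.48 did not pass (adjusted p = 0.063), and it passed without control replicate 1 (adjusted p = 0.042) or 2 (adjusted p = 0.033). It also passed without control replicates 1 and 4 together (adjusted p = 0.038) and with array weights (-0.47, adjusted p = 0.03). Pkp3, a plakophilin of epithelial desmosomes, ran from 5.26 to 5.54 in controls with a median of 5.47, was 5.76, 5.49 and 5.45 in stage I, and 5.68, 5.85 and 5.70 in stage II. All stage II arrays were above the controls, and stage I replicate 1 lay among them. Pkp3 rose 1.23-fold (0.30 ± 0.08, adjusted p = 0.027), with 0.31 (adjusted p = 0.017) at a second probe set. This call ended without control replicate 3 (0.29, adjusted p = 0.053), stage II replicate 2 (0.24, adjusted p = 0.1) or stage II replicate 3 (0.32, adjusted p = 0.07). Jup, plakoglobin, changed by 0.03 (adjusted p = 0.85).

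Among the desmosomal cadherins Dsc2, a desmocollin of simple epithelia and heart, differed between the stages. Its controls were widely spread, from 7.13 to 9.48 with a median of 8.17. Stage I arrays were at 6.55, 6.96 and 7.73 and stage II arrays at 8.74, 8.79 and 9.64. The stages did not overlap, and both lay partly inside the control range. Stage II was 3.95-fold above stage I (1.98 ± 0.53, adjusted p = 0.032), and a second probe set gave 1.42 ± 0.40 (adjusted p = 0.037). Against control neither stage passed, at -1.08 ± 0.46 in stage I (adjusted p = 0.74) and 0.90 ± 0.46 in stage II (adjusted p = 0.2). Without control replicates 1 and 4 the stage II change was 1.33 and passed (adjusted p = 0.031). The call between the stages ended without stage I replicate 1 (1.72, adjusted p = 0.092) or 2 (1.92, adjusted p = 0.093) and without stage II replicate 1 (2.14, adjusted p = 0.054) or 3 (1.69, adjusted p = 0.13). Dsg2, the desmoglein found in all tissues with desmosomes, was lower in each stage I array (6.02, 5.74 and 6.17) than in any control (6.22 to 6.65), but the change of -0.39 did not pass (adjusted p = 0.8). In stage II Dsg2 was at 6.42, 6.35 and 5.46, a change of -0.29 ± 0.19 (adjusted p = 0.32) that was 0.02 without replicate 3, and 0.08 (adjusted p = 0.72) at a second probe set.

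Of the 7 connexins 1 fell in stage II, beside 11.2% of all genes. Gja1, connexin 43, is the gap junction protein of granulosa cells. It ran from 13.04 to 13.32 in controls with a median of 13.28, was 13.19, 13.18 and 13.23 in stage I, and 13.01, 13.00 and 12.46 in stage II. Stage II arrays were all below the controls, 2 of them only just, and replicate 3 far below. Gja1 fell by 0.42 ± 0.11 on the log2 scale (1.34-fold lower, adjusted p = 0.018), and a second probe set gave -0.73 ± 0.16 (adjusted p = 0.0087). The call ended without stage II replicate 3 (-0.24, adjusted p = 0.065). Against stage I the difference of -0.37 did not pass (adjusted p = 0.077), and without stage II replicate 2 it was -0.46 and passed (adjusted p = 0.045). The second probe set passed against stage I (-0.75 ± 0.19, adjusted p = 0.026), as did the mean of the probe sets (-0.56, adjusted p = 0.036). The summed level of the 6 granulosa cell markers was 14.21 to 14.81 in controls and 14.46 to 14.86 in stage I. In stage II it was 13.1 to 14.13, again lowest in replicate 3. Of the 6 markers 5 fell (median -0.788), where 11.2% of all genes did. Without stage II replicate 3 the calls of Inhba (adjusted p = 0.062), Inhbb (adjusted p = 0.15) and Nap1l5 (adjusted p = 0.24) ended. The part of granulosa cells in the fall of Gja1 was not tested.

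Gja4, connexin 37, joins the oocyte to its granulosa cells and is also a connexin of arterial lining. It ran from 7.69 to 7.97 in controls with a median of 7.83, was 7.78, 7.59 and 7.55 in stage I, and 8.09, 7.91 and 8.32 in stage II. The stages did not overlap. Stage II was 1.38-fold above stage I (0.47 ± 0.11, adjusted p = 0.021), whereas the changes against control of -0.20 in stage I (adjusted p = 0.83) and 0.27 ± 0.10 in stage II (adjusted p = 0.068) did not pass. The call between the stages ended without stage I replicate 2 (0.44, adjusted p = 0.073) or 3 (0.42, adjusted p = 0.08) or stage II replicate 3 (0.36, adjusted p = 0.085). The stage II change against control passed without stage II replicate 2 (0.37, adjusted p = 0.024), with array weights (0.23, adjusted p = 0.045) and without the 3 arrays highest in Ovgp1, an oviduct gene (0.40, adjusted p = 0.037). Without stage II replicate 3 it was 0.17 (adjusted p = 0.34). Beside it, all 7 oocyte markers fell in stage II (median log2 change -0.808), where 11.2% of all genes did. Their summed level was 10.29 to 11.05 against 11.37 to 11.81 in controls and 11.41 to 11.56 in stage I. Of the 7 endothelial markers 1 rose in stage II, the VEGF receptor Flt1 (0.82, adjusted p = 0.0058), beside 9.81% of all genes. The summed level of this list was 10.85 to 11.08 in stage II, 10.54 to 10.60 in stage I and 10.51 to 10.97 in controls. The part of either cell type in the values of Gja4 was not tested.

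Between the stages 6 genes of the set passed, 8.7% against 12.5% of all genes (6.54% higher and 5.97% lower). Krt8, Cldn11, Cldn3, Dsc2 and Gja4 were higher in stage II than in stage I and Krt12 was lower. This is the comparison in which all samples carry the same alleles. Over all genes 716 were higher and 654 lower in it, and after quantile normalization 684 were higher and 936 lower, while the set's count kept at 5 higher and 1 lower. All stage II arrays lay above all stage I arrays for 1592 of the 10949 genes, and below them for 1873. In the set they lay above for 7 genes and below for 8.

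With both stages averaged against control, 3 genes passed, all higher, or 4.35% of the set, beside 6.76% of all genes past the threshold and 4.75% past it and higher. They were Krt8 (2.20 ± 0.26, adjusted p = 0.00022), Cldn11 (1.48 ± 0.21, adjusted p = 0.00077) and Cldn3 (1.04 ± 0.13, adjusted p = 0.00033). Over all genes 520 were higher and 220 lower here, and 504 and 345 after quantile normalization. Without control replicates 1 and 4, Dsp (-0.45, adjusted p = 0.031) and Krt79 (-0.42, adjusted p = 0.039) passed as lower. Over all genes 531 were then higher and 339 lower. With the 6 tumor arrays fitted as 1 group, Cldn3 passed (adjusted p = 0.047), and Krt8 (adjusted p = 0.13) and Cldn11 (adjusted p = 0.19) did not. The comparisons share their controls, so these counts do not add up.

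Within the groups, several members had their highest values in the same arrays. The arrays with the highest Ovgp1 of each group, the gene of the oviduct's main secreted glycoprotein, were control replicate 5, stage I replicate 2 and stage II replicate 2, at 12.70, 11.77 and 11.58. For 6 members (Epcam, Cldn10, Cldn2, Cldn23, Krt19 and Krt80) these same 3 arrays were the highest of their groups, 8.7% of the set against 2.02% of all genes. The summed level of the 5 oviduct markers spanned 9.09 to 12.85 in controls, 9.12 to 12.04 in stage I and 9.46 to 11.88 in stage II, and none of the 5 passed in any comparison. The part of oviduct tissue in these values was not tested. With the 3 arrays left out, the stage II change of Krt8, Cldn11 and Cldn3 still passed, that of Cldn2 was 1.06 (adjusted p = 0.011), and that of Pkp3 was 0.24 (adjusted p = 0.17). Between the stages Cldn3 (0.81, adjusted p = 0.07) and Dsc2 (2.05, adjusted p = 0.13) then no longer passed.

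Control replicates 1 and 4 were the lowest pair of controls for 7 members (Epcam, Cldn10, Cldn14, Cldn15, Krt19, Krt7 and Krt8), 10.1% of the set against 13.9% of all genes. They were the highest pair for 16 members, 23.2% against 18.2%. The summed level of the 4 luteal markers was 14.81 and 15.06 in these arrays and 13.32 to 13.73 in the other controls, and their part in these values was not tested. Leaving both out raised the count of stage II calls from 8 to 14 of 69, with 7 higher and 7 lower. Over all 10949 genes the count rose as well, from 2302 to 2651, with 1205 higher and 1446 lower.

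**Figure D3:**
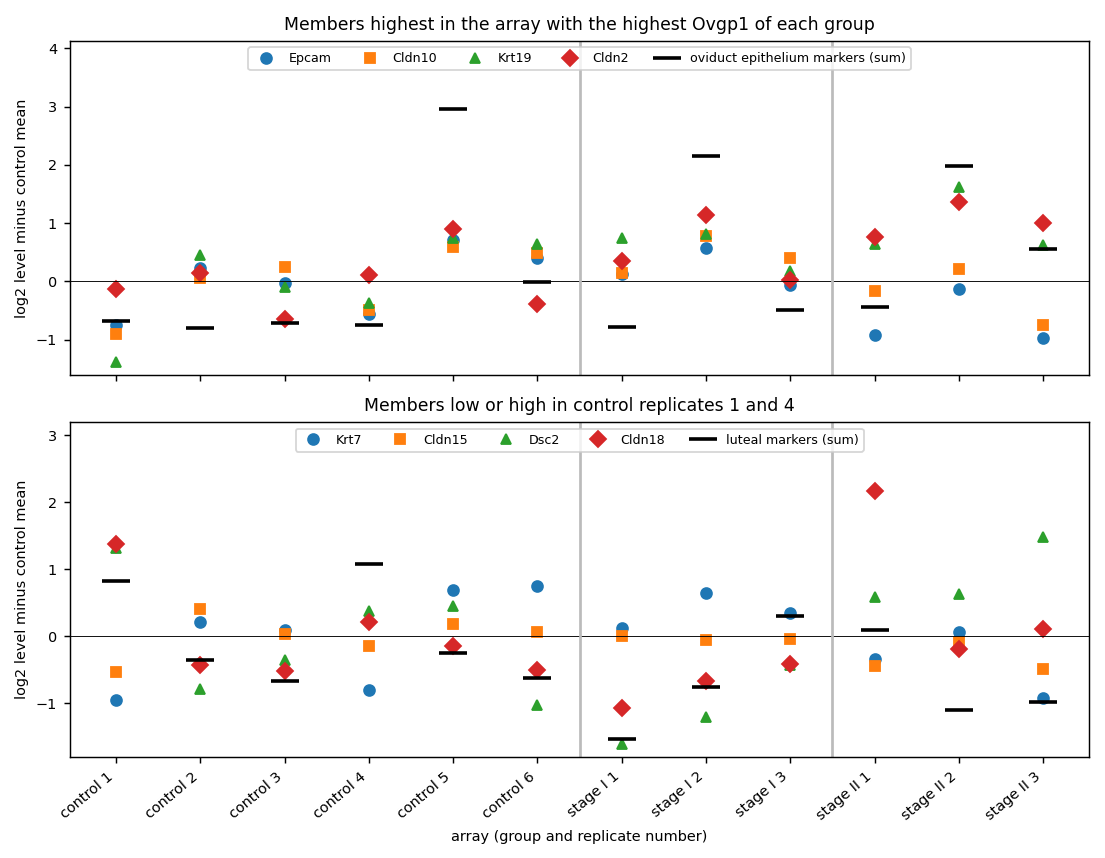
Level in each array minus the control mean on the log2 scale. The top panel holds 4 members that are highest in the array with the highest Ovgp1 of each group. The bottom panel holds 4 members, Krt7, Cldn15, Dsc2 and Cldn18. Control replicates 1 and 4 both lie below the control mean for Krt7 and Cldn15. Both lie above it for Dsc2 and Cldn18, although for Dsc2 control replicate 5 is higher than replicate 4. Black bars are the summed oviduct (top) or luteal (bottom) markers. In the top panel control replicate 5, stage I replicate 2 and stage II replicate 2 stand highest of their groups for all 4 genes.

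Of 26 measured genes of epithelial identity and polarity outside the set, 5 rose and 2 fell in stage II, beside 21.0% of all genes that passed (9.81% higher and 11.2% lower). Their median log2 change was 0.013, and none of the 26 passed in stage I. St14, the membrane protease matriptase, rose from 5.58 to 6.04 in controls to 6.80, 7.05 and 7.12 (1.15, adjusted p = 8.2e-05). Elf3, an epithelial ETS factor, rose by 0.82 (adjusted p = 0.0016). Cxadr, an adhesion molecule of tight junctions, rose by 0.69 (adjusted p = 0.0028). Llgl2, a polarity protein, rose by 0.65 (adjusted p = 0.002), and Perp, a desmosome protein, by 0.45 (adjusted p = 0.0053). The polarity scaffold Patj fell by 0.55 (adjusted p = 0.0084).

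Of 12 adherens junction and nectin genes 2 rose and 2 fell in stage II, again beside 21.0% of all genes, with a median of -0.058. Cdh3 is on this list and on the one before, so it was counted in both. Cdh2, N-cadherin, is the cadherin of granulosa cells and of many non-epithelial tissues. It was between 9.56 and 10.09 in controls, at 10.34, 9.89 and 9.90 in stage I and at 11.29, 11.19 and 10.92 in stage II (1.37 ± 0.14, adjusted p = 3e-05). Nectin2, a partner of cadherins, rose by 0.69 (adjusted p = 0.0004). Cdh3, P-cadherin, fell by 0.26 (adjusted p = 0.023), a call that ended with any 1 stage II array left out (adjusted p from 0.056 to 0.072). The difference of -0.37 for Jam3 (adjusted p = 0.047) lost its call in 13 of 24 alternatives, and was -0.20 (adjusted p = 0.26) without stage II replicate 3. Among 8 other intermediate filament and linker genes 1 rose and 1 fell, again beside 21.0% of all genes, with a median of 0.134. Lmna, of the nuclear lamina, rose by 0.36 (adjusted p = 0.016) and Des, of muscle, fell by 0.29 (adjusted p = 0.033). The call of Lmna ended without stage II replicate 3 (0.24, adjusted p = 0.091), and that of Des without any 1 stage II array or control replicate 3, 4 or 5 (adjusted p from 0.051 to 0.11).

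Of 5 transcription factors known for turning epithelial into mesenchymal cells, 2 fell in stage II and none rose. Beside this, 11.2% of all genes fell and 9.81% rose. The median of the 5 was -0.334. Snai2 fell by 0.69 (adjusted p = 0.0024) and Twist1 by 0.63 (adjusted p = 0.021). The call of Twist1 ended without stage II replicate 1 (adjusted p = 0.076) or 3 (adjusted p = 0.12).

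Of 4 markers of the ovarian surface epithelium and mesothelium Bnc1 fell (-0.80, adjusted p = 0.015; 0.066 without stage II replicate 1 and 0.093 without replicate 3), with a median of -0.463, and the summed level of the 4 was 10.29 to 11.04 in stage II, 10.74 to 10.92 in stage I and 10.27 to 11 in controls. Of 8 smooth muscle markers 6 fell (median -0.524), and their summed level was 13.93 to 14.06 in controls, 13.65 to 13.91 in stage I and 13.28 to 13.57 in stage II. All 5 macrophage markers rose (median 0.525), with sums of 11.55 to 11.84, 11.79 to 12.51 and 12.24 to 12.54 in the same order. The calls of Fcgr1, C1qa and C1qb ended without stage II replicate 1 (adjusted p from 0.077 to 0.094) or 3 (adjusted p from 0.16 to 0.17). They also ended without control replicate 1, 2 or 4 (adjusted p from 0.054 to 0.069). Beside the counts of these lists, 9.81% of all genes rose and 11.2% fell in stage II. No luteal marker passed in stage II, with a median of -0.426. In stage I none of these genes passed. The part of these cell types in the values of Krt8, Cldn11 and Cldn3 was not tested.

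**Figure D4:**
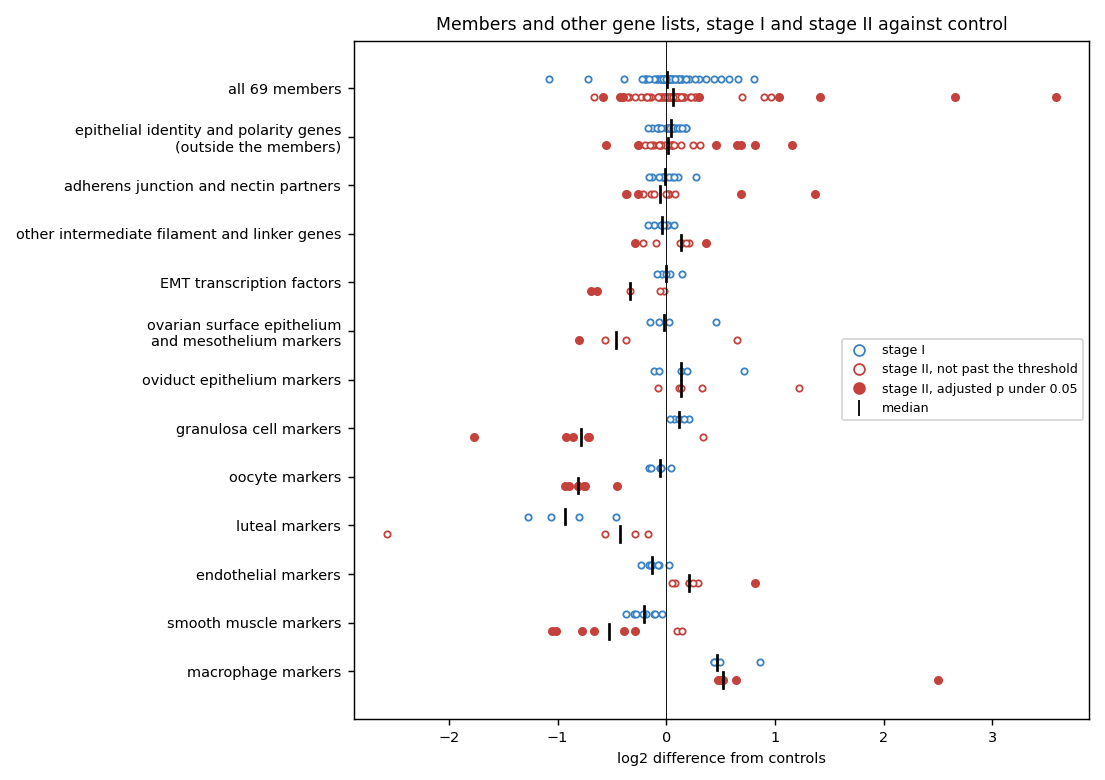
Log2 difference from the control mean in stage I (blue) and stage II (red) for the 69 members and for each list of other genes, with medians as black bars and filled points past the adjusted p threshold of 0.05. The members spread furthest to the right, through Krt8 and Cldn11, while their median lies near 0.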

How the data were processed

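The values used are log2 levels per probe set and array, which the authors deposited. The method that summarised and normalized them is not given in the sources used here, and array medians of 7.09 to 7.15 show that the arrays had been brought to a common level, so a change of total RNA per cell cannot be seen. Per the labels, the RNA came from a Trizol extraction followed by a column step, and the label field gives biotin, while the labelling text there names Cy3 and Cy5, and this was not settled. Depth does not apply to arrays, and their number limits the precision. No measured background was used, so no probe set has a detection limit.

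Of 16376 probe sets, 14674 have 1 symbol in the platform annotation, and each gene was read from its brightest probe set (by the mean of all arrays), which left 10949 genes. All 69 members were found in RefSeq (GRCm38.p6), and none was filtered on low values. One model with 3 group means was fitted in R 4.3.3 by lmFit and eBayes of limma 3.58.1, with 9 residual and 3.13 prior degrees of freedom, and p-values were adjusted by Benjamini-Hochberg over all genes. The fit was tested on simulated data.

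Members and gene lists were chosen with earlier results of these data known. Genes past the threshold were named, and in families with fewer than 2 of these the 2 with the largest stage II change. Cldn4, Cldn5, Cldn10, Cldn14, Cldn15, Cldn18, Cldn23, Gja10, Tjp1, Jup, Krt5, Krt6a, Krt14, Krt20, Krt42, Krt79, Krt80, Patj and Perp were named after their values were seen. Alternatives were another normalization, filters, probe set rules, fits and left-out arrays.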

Additional observations from a re-analysis of the deposited data

Results flagged for a closer look

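In controls, 4 of the 69 genes had 1 array far from the other 5 by Dixon's test, and chance flags about 1 in 20 groups. Cldn11 was lowest at 5.58 in control replicate 4, and Gja1 was lowest at 13.04 in the same array. Cldn23, a claudin at a low level, was highest at 3.86 in control replicate 5. Krt42, a keratin at a low level, was lowest at 4.65 in control replicate 2.

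The changes against control differed between stage II and stage I in 6 genes, by limma's test of stage II against stage I, in which the controls cancel. The stage II minus stage I difference on the log2 scale was 2.78 for Krt8, 2.36 for Cldn11, 0.75 for Cldn3, 1.98 for Dsc2, 0.47 for Gja4 and -0.41 for Krt12. For Dsc2 the stage I change of -1.08 and the stage II change of 0.90 had opposite signs, as had those of Gja4 at -0.20 and 0.27, and none of these 4 changes passed by itself.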

How the results depend on the processing

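In stage II, Krt8, Cldn11 and Cldn3 passed in all 24 alternatives (Krt8 at least 3.14 on the log2 scale), and no call of the set was reversed. The count of stage II calls, 8 over all arrays, was 14 with array weights, 14 without control replicates 1 and 4, 4 at a minimum of 2-fold and 5 with the replicate block. Leaving out 1 array gave 3 (without stage II replicate 3) to 9. Stage I had 0 calls and 0 to 1 with 1 array left out (Cldn3 without stage I replicate 3). Stage II against stage I had 6 calls, 3 when the compared groups were fitted alone, 3 at 2-fold, 3 with the block, and 2 (without stage II replicate 3) to 7 with 1 array left out. Both stages against control had 3 calls, 1 when fitted alone, 5 without control replicates 1 and 4, and 3 to 5 (without control replicate 5) with 1 array left out. The causes were not tested. Over 9 same-numbered pairs the deviations from the group means correlated between -0.132 and 0.204. Pairs with different numbers were not compared, so a pairing of samples by replicate number was not settled. The block is given here as an alternative. Over all genes stage II had 2302 calls, 3171 with array weights and 2651 without control replicates 1 and 4. It had 1090 with the block and 1145 without stage II replicate 3. Both stages against control had 740, and 42 when fitted alone. Stage II against stage I had 1370, and 393 when fitted alone. Of 3140 values of named members under alternatives, 2878 kept direction and side of the threshold, 55 lost the call, 36 gained one and 171 changed sign without passing. The 32 members in the lowest 25% of genes by mean level, with no measured background, can show no change below what their probes detect.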

Other observations

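A probe set that the platform annotation gives to both Krt17 and Krt14 stayed out of the set. It was at 5.07 to 5.37 in controls, 5.10 to 5.41 in stage I and 5.28 to 5.38 in stage II, so the groups overlapped.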
